A study of Mus musculus with 6 samples.

Results

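The family described here is the A-kinase anchoring proteins (AKAPs), through 10 genes found by their symbols in the deposited count table: Akap1, Akap3, Akap4, Akap8, Akap9, Akap10, Akap11, Akap12, Akap13 and Akap14, among 57010 gene IDs in all. RNA was sequenced from immunoprecipitates made with an antibody to PNMA4, a capsid-like protein of retrotransposon origin whose mouse gene is listed as Moap1. The comparison sets 3 wild-type libraries (C57BL/6J mice per the labels) against 3 libraries lacking PNMA4, the antibody's negative control. In the second group replicates 1 and 2 came from Pnma4 KO mice and replicate 3 from Pnma1, Pnma4 DKO mice, called the double knockout below. Testes were taken at an age of 3 months, and 8 of them went into the lysate behind each library. Its dense material, caught between 25% and 70% sucrose, was separated on iodixanol, and fractions 8 and 9 were immunoprecipitated. The sources used here do not say how the knockout alleles were made.

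AKAPs are scaffolds that hold the regulatory subunits of protein kinase A (PKA), the kinase switched on by cyclic AMP, at one place in the cell, often together with phosphatases, phosphodiesterases and other kinases. In the testis the family is best known for AKAP3 and AKAP4, structural proteins of the fibrous sheath, the cytoskeletal sleeve around the principal piece of the sperm tail, whose messages are made after meiosis in spermatids. The remaining members sit on mitochondria, in the nucleus, at the centrosome and Golgi, or under the plasma membrane, and most are expressed in many tissues.

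The promoters of the family are shown first, because the fibrous sheath pair share a run of 20 bases there. A promoter here is the 250 bases before an annotated transcription start in RefSeq's GRCm38.p6 annotation, which gave 13 windows for 9 of the 10 members, Akap12 being the one with none. The windows of Akap3 (chr6:126852848-126853097, plus strand) and Akap4 (its first start, chrX:7067265-7067514, plus strand) hold the same run of 20 bases in the same orientation, printed in capitals.
Akap3: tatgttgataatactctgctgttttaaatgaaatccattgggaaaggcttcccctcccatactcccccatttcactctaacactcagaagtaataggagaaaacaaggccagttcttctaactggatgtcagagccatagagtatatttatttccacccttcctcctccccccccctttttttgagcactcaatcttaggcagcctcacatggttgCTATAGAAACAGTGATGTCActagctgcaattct
Akap4: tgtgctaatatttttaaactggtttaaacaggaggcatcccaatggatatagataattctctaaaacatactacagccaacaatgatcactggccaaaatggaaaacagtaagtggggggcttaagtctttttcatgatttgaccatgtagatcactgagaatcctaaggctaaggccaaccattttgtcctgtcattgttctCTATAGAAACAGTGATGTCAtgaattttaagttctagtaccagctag
The run, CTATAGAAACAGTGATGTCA, lies from base -34 to -15 before the start of Akap3 and from -47 to -28 before that of Akap4. Searched on both strands, it was in 2 of 32851 windows of all genes, these same ones, or 0.00609%. The run was defined as the longest that these windows share, so its absence elsewhere does not measure how unusual the sharing is. Over the 36 pairs of members with a window, the longest shared run had a median of 8 bases. Its last 8 bases, TGATGTCA, are a variant of the cyclic AMP response element, the site bound by CREB and CREM factors, and were in 2.93% of all windows and in no other member window. The element itself, TGACGTCA, was in 1.55% of all windows and in no member window. A match to the X-box, the site bound by RFX factors, overlaps the run in Akap3 (bases -38 to -25) and was in 0.195% of all windows, and the window of Akap4 has no match. The run, the variant element and the X-box were chosen after the sequences had been read. A match is a description of letters and not a binding site.

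Among the other members the next longest run shared by 2 genes was of 14 bases, in opposite orientations. It lies before the third listed start of Akap1 and the second of Akap11. Those windows (chr11:88864587-88864836 and chr14:78536861-78537110, both minus strand) are shown for contrast, with the palindrome TCTCGCGAGA in capitals, the central bases of that run.
Akap1: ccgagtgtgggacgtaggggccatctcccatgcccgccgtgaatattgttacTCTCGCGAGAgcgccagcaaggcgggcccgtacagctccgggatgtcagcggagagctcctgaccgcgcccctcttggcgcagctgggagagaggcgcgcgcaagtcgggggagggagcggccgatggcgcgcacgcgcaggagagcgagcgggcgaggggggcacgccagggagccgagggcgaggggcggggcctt
Akap11: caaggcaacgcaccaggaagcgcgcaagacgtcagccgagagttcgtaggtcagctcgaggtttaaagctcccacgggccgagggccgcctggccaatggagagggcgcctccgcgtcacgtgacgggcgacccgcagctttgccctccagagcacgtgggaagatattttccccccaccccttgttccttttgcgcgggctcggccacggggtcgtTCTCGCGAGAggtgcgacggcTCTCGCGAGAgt
That palindrome, also chosen after the sequences had been read, was in 0.39% of all windows, and Akap11 holds it at 2 places. Both windows are rich in CpG, with 31 and 29 CpG pairs. The Akap3 window, both Akap4 windows and the first window of Akap11 have 0, the other Akap1 windows have 3 each, and those of Akap14 and Akap13 have 4 and 10. Akap10, Akap8 and Akap9 had 24, 24 and 18, against a median of 6 over all windows. The TATA box TATAAA was in no member window (12.4% of all). The GC box GGGCGG was in 6 of 13 member windows (32.7% of all), from 4 members. The first and second windows of Akap1 overlap and are counted separately here. CCAAT was in 5 of 13 (33.8% of all), Akap3 and Akap4 included.

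**Figure D1:**
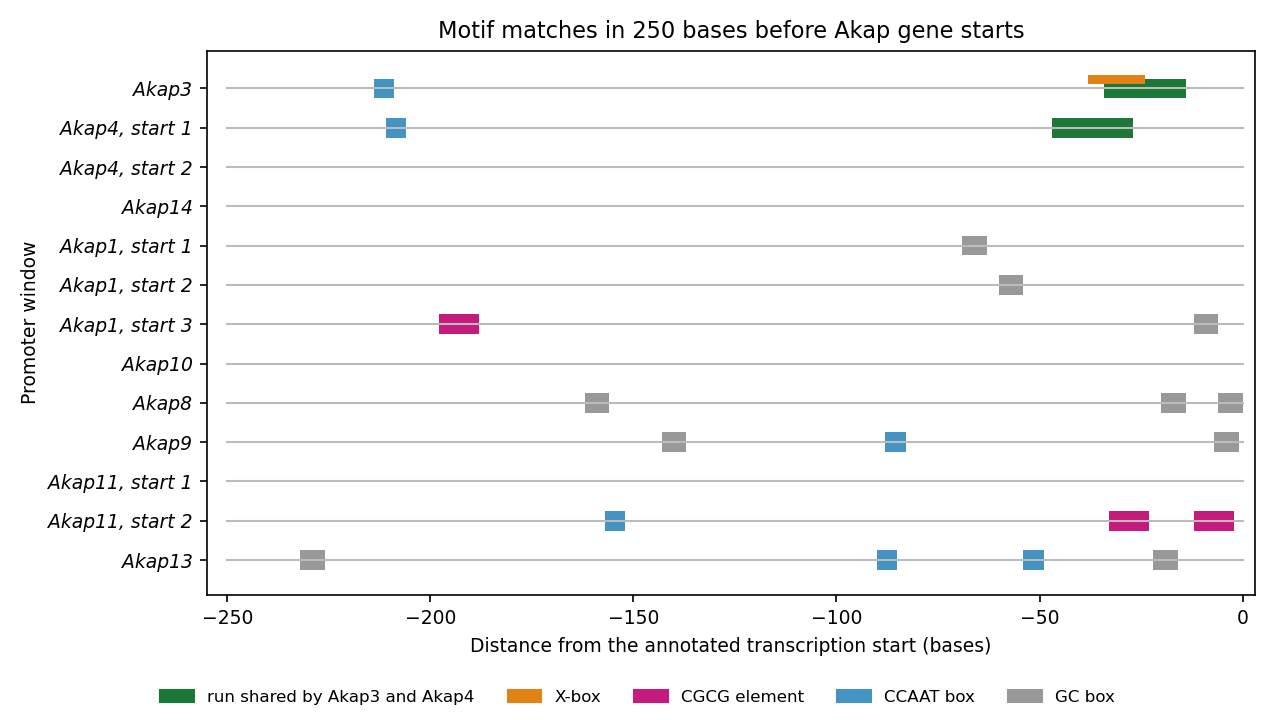
Matches of 5 sequence patterns in the 13 promoter windows of 9 Akap genes, one row per annotated start, against distance from that start in bases. The run shared by Akap3 and Akap4 lies within 50 bases of both starts, and the CGCG element (TCTCGCGAGA) is in the rows of Akap1 and Akap11.

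Total counts ran from 3138657 to 6367930 per library. Moap1 had 0 counts in all 3 libraries lacking PNMA4 and 7 to 27 in wild type, and Pnma1 had 0 in the double knockout alone. The 18S-related gene Rn18s-rs5 held 57.5% of the counts of the double knockout and 27.3% to 36.1% of those of the other libraries. Markers of testis germ cells were plentiful: 14 spermatid markers summed to 2573 to 3495 CPM in wild type, against 3082 to 3301 CPM in libraries lacking PNMA4. The double knockout stood apart in Leydig cell markers, whose 8 genes summed to 424 CPM there, against 166 to 190 CPM in wild type and 164 and 213 CPM in the Pnma4 KO libraries. The 8 tested Sertoli cell markers summed to 376 CPM there, against 179 to 254 CPM in wild type and 252 and 184 CPM in the Pnma4 KO libraries. Of 11 epididymis markers 2 were tested, and their sums did not overlap between the groups, with 7.42 to 11.3 CPM in wild type, against 13.4 to 26.4 CPM in libraries lacking PNMA4. Crisp1 was lower in wild type at 0.440 ± 0.254 CPM, against 5.79 ± 2.56 CPM without PNMA4 (SD, n = 3 each, log2 fold change -3.57, edgeR adjusted p = 0.00244). Cst8 stood at 8.98 ± 2.03 and 14.8 ± 4.04 CPM in the same order (edgeR adjusted p = 1.00). Its groups overlapped, while those of Crisp1 did not, as for 6.69% of all genes tested. Lcn5, Defb41, Gpx5 and Spink11 were at 0 in all libraries. The untested Crisp4, Lcn8, Defb42, Adam7 and Ros1 had 0 to 10 counts a library. Among them the raw counts of Adam7 alone did not overlap between the groups, at 1, 2 and 2 in wild type, against 4, 10 and 8 without PNMA4. The share of these differences in any Akap value was not tested. These libraries are immunoprecipitates of gradient fractions and not whole testis, so the marker sums do not give its cell composition. Fewer cells of a type and less RNA per cell cannot be told apart here either.

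Levels are CPM, the reads of a gene relative to a library size scaled by the TMM method, which sets the bulk of genes equal between libraries. Reads are not divided by transcript length, so levels of different genes are not ranked here. Groups were compared with edgeR's quasi-likelihood test over 13413 genes, with Benjamini-Hochberg adjustment over all of them. Positive log2 fold changes mean higher in wild type.

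No member of the family passed the test of a difference between wild type and the libraries lacking PNMA4. All 10 members passed the low-count filter, and 0 of 10 passed the test in edgeR, DESeq2 or limma-voom. The background in edgeR was 0.0596% of all genes tested (8 of 13413), and DESeq2 and limma-voom called 7 and 6 genes. At an unadjusted p under 0.05 there were also 0 of 10 in each of the 3 tools, against 2.92% of all genes in edgeR (392). With 1 library left out, that number of genes ran from 233 without the double knockout to 1326 without wild-type replicate 3, and it held no member except Akap9 (unadjusted p = 0.0491) without wild-type replicate 2. The groups overlapped for all 10 members, and they did not overlap for 6.69% of all genes. The log2 fold changes ran from -0.18 for Akap4 to 0.28 for Akap9. Their median was 0.17, against 0.01 for all genes tested, and 8 of 10 were above 0, against 52% of all genes. Without scaling factors, which moves the median of all genes to 0.31, all 10 were above 0, Akap4 at 0.19 and Akap11 at 0.24 included. In the fit with TMM factors and all libraries, each 95% interval lay within 1 of 0 on the log2 scale, as for 71.1% of all genes. Every interval of that fit thus leaves out a 2-fold difference from the bulk of genes. Intervals were not computed for the fits with 1 library left out, so this bound is not shown to hold there. Without Pnma4 KO replicate 2, the log2 fold change was 0.50 for Akap12 (standard error 0.30) and 0.52 for Akap9 (standard error 0.27).

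**Figure D2:**
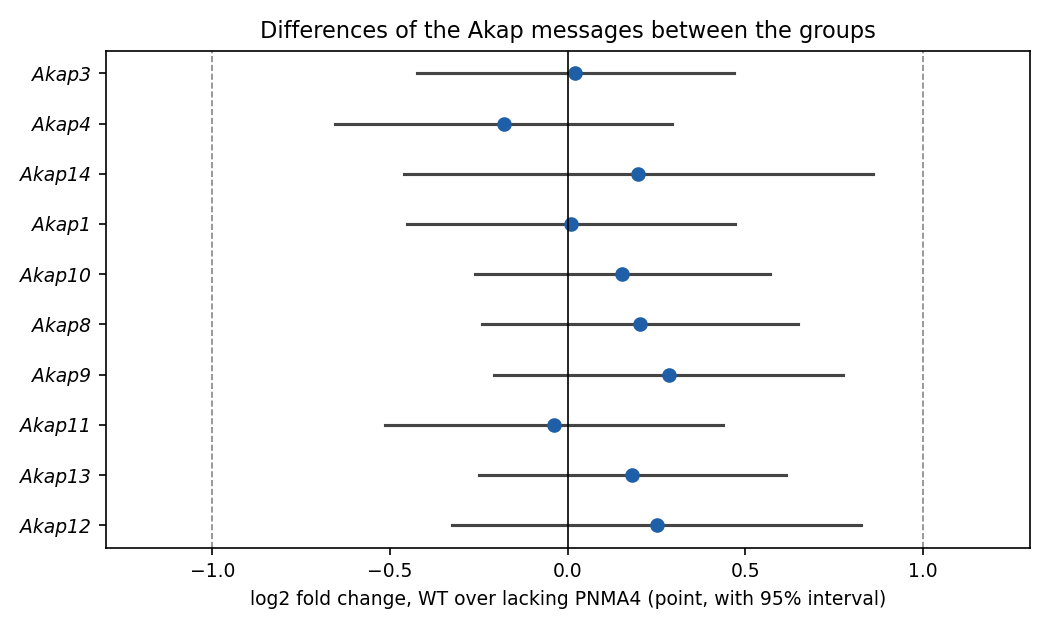
Log2 fold change of each Akap gene, wild type over lacking PNMA4 (points), with its 95% interval from the edgeR fit (lines), n = 3 libraries a group. All intervals include 0 and lie between the dashed lines at -1 and 1.

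The fibrous sheath genes were well covered and at overlapping levels in both groups. Akap3 (ENSMUSG00000030344, chromosome 6, 126853098 to 126874308 in GRCm38.p6) encodes a sheath protein that assembles early and binds PKA. It had 470, 557 and 387 CPM in wild-type replicates 1 to 3, against 490, 428 and 476 CPM in Pnma4 KO replicates 1 and 2 and the double knockout. The wild-type values span those of the other group. Its log2 fold change was 0.02 with a 95% interval of -0.42 to 0.47 (edgeR adjusted p = 1.00).

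Akap4 (ENSMUSG00000050089, chromosome X, 7067515 to 7078609) encodes the major structural protein of the sheath, made as a precursor that is cleaved when the sheath is built. It had 404, 512 and 358 CPM in wild type, against 523, 355 and 567 CPM in the same order without PNMA4. The double knockout was the highest library and Pnma4 KO replicate 2 the lowest, so the spread among the controls was wider than the difference between the groups. The log2 fold change was -0.18 with an interval of -0.65 to 0.29 (edgeR adjusted p = 1.00).

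Akap3 and Akap4 can also be set against each other within each library. The ratio of Akap4 to Akap3 counts was 0.860, 0.918 and 0.923 in wild type, against 1.07, 0.829 and 1.19 without PNMA4. It was above 1 in Pnma4 KO replicate 1 and the double knockout alone, and the group means of the log2 ratio differed by -0.18 (two-sided exact permutation p = 0.4, n = 3 each). A design of 3 against 3 libraries cannot give an exact p below 0.1.

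Akap14 (ENSMUSG00000036551, chromosome X, 37150698 to 37168842), whose human protein is an anchor of cilia, was the member with the fewest reads. It had 30, 37 and 44 counts in wild type, against 17, 40 and 16 without PNMA4, or 7.89, 4.73 and 6.76 CPM against 5.39, 5.71 and 5.35 CPM. Wild-type replicate 2 was the lowest library and replicate 1 the highest. Its log2 fold change of 0.20 had the widest interval among the members, -0.46 to 0.86 (edgeR adjusted p = 1.00). Its annotated span overlaps that of Nkap, so some of these reads may belong to that gene, and the sources used here do not give the strand settings. The spans of Akap1, Akap9 and Akap12 also overlap other annotated genes, among them 4930556N13Rik, Gm51438 and Gm40592 in that order.

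Akap12 took the most reads of the family in every library. The gene (ENSMUSG00000038587, chromosome 10, 4266329 to 4359471), listed in RefSeq also as SSeCKS and Tsga12, encodes a large scaffold of PKA and protein kinase C under the plasma membrane. It had 5009, 2983 and 2963 CPM in wild type, against 2426, 4036 and 2746 CPM without PNMA4. One library stood out in each group, wild-type replicate 1 and Pnma4 KO replicate 2, and the remaining 4 lay between 2426 and 2983 CPM. The log2 fold change was 0.25 with an interval of -0.33 to 0.83 (edgeR adjusted p = 1.00). It was -0.05 without wild-type replicate 1 and 0.50 without Pnma4 KO replicate 2, with no call in either case (edgeR adjusted p = 1.00 and 0.9997).

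In reads, Akap12 ranked from 5th to 7th of all genes in the wild-type libraries and from 6th to 8th without PNMA4. It held 0.509%, 0.381% and 0.317% of all counts in wild type, against 0.244%, 0.444% and 0.172% without PNMA4. Counting error is small beside these differences: the 95% Wilson interval was 0.502% to 0.516% in wild-type replicate 1 and 0.168% to 0.176% in the double knockout. These shares are of all counts, of which Rn18s-rs5 held 33.8% in wild-type replicate 1 and 57.5% in the double knockout. In CPM, which are scaled by TMM, Akap12 stood at 5009 and 2746 in these libraries, with Pnma4 KO replicate 1 lowest at 2426. A long transcript collects more reads than a short one at equal copy number, so the rank is one of reads and not of molecules.

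**Figure D3:**
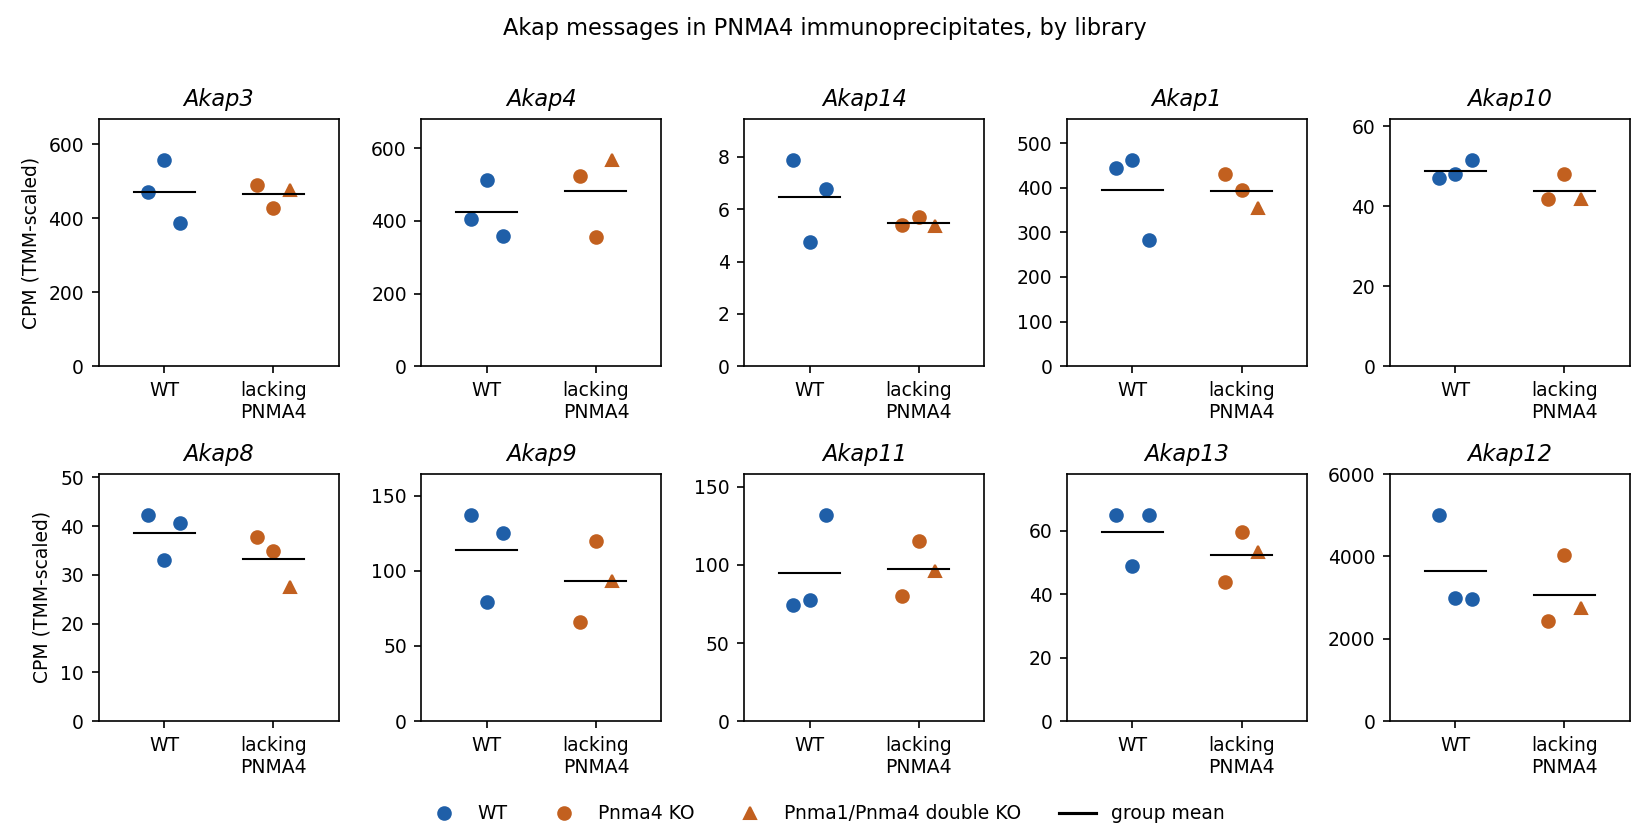
CPM of each Akap gene in 6 libraries, wild type on the left and lacking PNMA4 on the right, with the double knockout as a triangle and group means as lines. Each panel has its own axis from 0, and in each of the 10 panels the groups overlap.

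Akap12 made up 58.5% to 74.8% of all Akap reads. Its part was 68.0% ± 6.39 in wild-type libraries and 64.1% ± 7.12 in those lacking PNMA4 (SD, n = 3 each). Akap3 and Akap4 together had 0.174, 0.358 and 0.251 reads for each read of Akap12 in wild type, against 0.417, 0.194 and 0.380 without PNMA4. This ratio needs no scaling factor, and its log2 averaged -2.00 ± 0.52 in wild-type libraries and -1.67 ± 0.60 in those lacking PNMA4 (SD, n = 3 each). The difference of -0.32 was smaller than the spread within either group (two-sided exact permutation p = 0.5). It was -0.06 without wild-type replicate 1 and -0.67 without Pnma4 KO replicate 2, the libraries richest in Akap12.

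**Figure D4:**
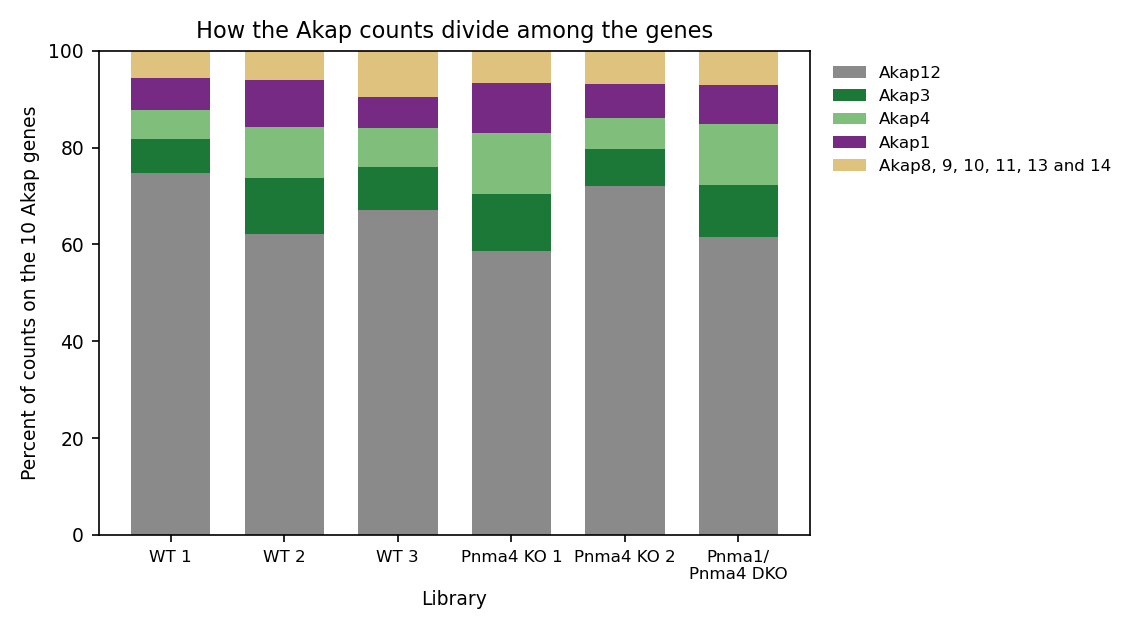
Percent of the counts on the 10 Akap genes that fell on Akap12, Akap3, Akap4, Akap1 and the other 6 members, by library. Akap12 holds 58.5% to 74.8%, with the highest parts in wild-type replicate 1 and Pnma4 KO replicate 2.

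The 10 members together held 0.681%, 0.614% and 0.472% of all counts in wild type, against 0.416%, 0.615% and 0.279% without PNMA4. The double knockout was lowest, and it is also the library with the most Rn18s-rs5 reads. The means were 0.589% ± 0.107 and 0.437% ± 0.169 (SD, n = 3 each), a difference that did not pass (two-sided exact permutation p = 0.3). Of counts outside Rn18s-rs5 and Lars2, whose reads are rRNA-like, the family held 0.945% ± 0.215 in wild-type libraries and 0.865% ± 0.105 in those lacking PNMA4 (two-sided exact permutation p = 0.6, n = 3 each).

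The anchors known from mitochondria had overlapping groups. Akap1 (ENSMUSG00000018428, chromosome 11, 88830792 to 88864596) encodes an anchor of the outer mitochondrial membrane that also binds RNA and has a form known from sperm. It had 443, 462 and 282 CPM in wild type, against 430, 396 and 354 CPM without PNMA4. Wild-type replicate 3 was lowest, and the log2 fold change was 0.01 (interval -0.45 to 0.47, edgeR adjusted p = 1.00). Akap10 (ENSMUSG00000047804, chromosome 11, 61865203 to 61930308), which binds both types of PKA regulatory subunit, was the steadiest member. It had 47.0, 48.2 and 51.6 CPM in wild type, against 41.9, 48.0 and 41.8 CPM without PNMA4. Its highest library was 1.23 times its lowest, where the median gene with a mean of at least 10 CPM had a ratio of 1.61. Its log2 fold change was 0.15 (interval -0.26 to 0.57, edgeR adjusted p = 1.00), and Pnma4 KO replicate 2 alone of the controls lay within the wild-type range.

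Anchors of the nucleus, centrosome and vesicles also overlapped between the groups. Akap8 (ENSMUSG00000024045, chromosome 17, 32303672 to 32321238), a zinc finger protein of the nucleus, had 42.3, 33.0 and 40.6 CPM in wild type, against 37.8, 34.9 and 27.4 CPM without PNMA4. The double knockout was its lowest library, and the log2 fold change was 0.20 (interval -0.24 to 0.65, edgeR adjusted p = 1.00). Akap9 (ENSMUSG00000040407, chromosome 5, 3927736 to 4080204), a very large coiled-coil scaffold of the centrosome and Golgi, had 137, 79.6 and 125 CPM in wild type, against 66.0, 120 and 93.0 CPM without PNMA4. It had the highest log2 fold change of the family, 0.28 (interval -0.21 to 0.77, edgeR adjusted p = 1.00), and a 2.08-fold range over libraries. Akap11 (ENSMUSG00000022016, chromosome 14, 78492246 to 78536980), an anchor on vesicles that also binds the kinase GSK3, had 74.4, 77.8 and 132 CPM in wild type, against 80.3, 115 and 96.0 CPM without PNMA4. Wild-type replicate 3 was the highest library and replicates 1 and 2 the lowest, and the log2 fold change was -0.04 (interval -0.51 to 0.44, edgeR adjusted p = 1.00).

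Akap13 (ENSMUSG00000066406, chromosome 7, 75455526 to 75754609), an anchor that is also an activator of the GTPase RhoA, had 64.9, 49.0 and 65.0 CPM in wild type, against 43.8, 59.7 and 53.2 CPM without PNMA4. Its log2 fold change was 0.18 (interval -0.25 to 0.62, edgeR adjusted p = 1.00). Its libraries ranked almost as those of Akap9, with wild-type replicates 1 and 3 and Pnma4 KO replicate 2 as the upper 3 for both genes. In those libraries Akap9 stood at 1.33, 1.21 and 1.16 times its own mean over all libraries, and Akap13 at 1.16, 1.16 and 1.07 times.

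Across libraries the fibrous sheath pair followed another order than several other members. Akap3 stood at 1.00, 1.19 and 0.828 times its own mean in wild-type replicates 1 to 3, and Akap4 at 0.891, 1.13 and 0.790 times. In Pnma4 KO replicates 1 and 2 and the double knockout the ratios were 1.05, 0.914 and 1.02 for Akap3 and 1.15, 0.783 and 1.25 for Akap4. Both were thus above their means in wild-type replicate 2, Pnma4 KO replicate 1 and the double knockout, where Akap9, Akap12, Akap13 and Akap14 were below theirs. Akap1 was also above its mean in wild-type replicate 2 and Pnma4 KO replicate 1, and at 0.898 times it in the double knockout. This order cuts across the groups, and it was noticed in the values rather than set out beforehand.

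**Figure D5:**
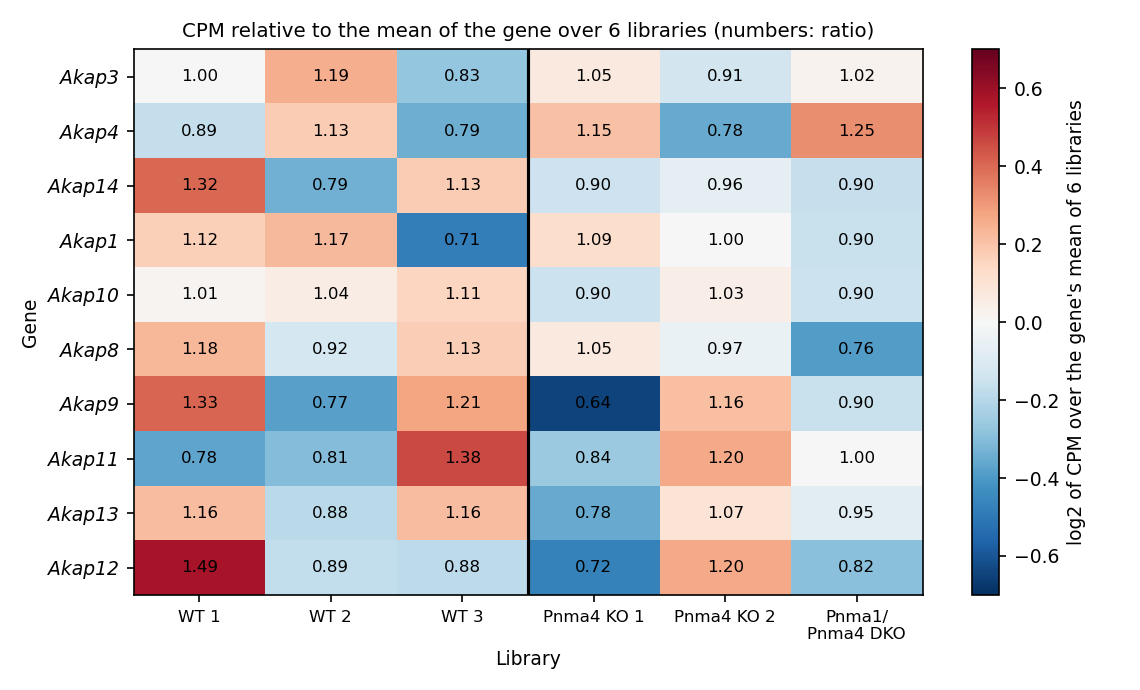
CPM of each Akap gene (rows) in each library (columns) relative to the mean of that gene over 6 libraries, with wild type left of the black line. Akap3 and Akap4 are above 1 in wild-type replicate 2, Pnma4 KO replicate 1 and the double knockout, where Akap9, Akap12, Akap13 and Akap14 are below 1.

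The double knockout could be set against the Pnma4 KO libraries in a fit with 3 genotypes, in which the lone library is assumed to vary like the others. In edgeR 0 of 10 members passed at an adjusted p of 0.05 or at an unadjusted p under 0.05, against 0.0746% of all genes by the adjusted p (10 of 13413) and 6.19% by the unadjusted p. The number of genes past the adjusted p was 38 without wild-type replicate 3, 25 without wild-type replicate 2 and 20 without Pnma4 KO replicate 1, each with 0 members. The log2 fold changes, double knockout over Pnma4 KO, ran from -0.40 for Akap8 (standard error 0.35, edgeR adjusted p = 0.988) to 0.37 for Akap4 (standard error 0.35, edgeR adjusted p = 0.989). Akap12 had -0.23 and Akap3 0.05. Without scaling factors, 201 genes passed and all 10 members were negative, with a median of -0.81 beside -0.76 for all genes. Akap1 and Akap8 then had unadjusted p of 0.0495 and 0.0107, or 2 of 10 members against 29% of all genes under 0.05, and no member passed after adjustment in edgeR.

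Further genes coding for anchors also gave no call. Of 25 listed symbols, 22 were in the table and 18 gene IDs were tested, of which 0 passed the test and 0 had an unadjusted p under 0.05 in edgeR. Their median log2 fold change was 0.00, with 9 above 0 and 9 below. Pcnt, the centrosome protein pericentrin, was at 143 ± 40.6 CPM in wild-type libraries, against 108 ± 18.5 CPM in those lacking PNMA4 (SD, n = 3 each). The interval of its log2 fold change, 0.40, crosses 0 (edgeR adjusted p = 1.00). Arfgef2, an activator of ARF GTPases that binds PKA, stood at 148 ± 19.0 and 142 ± 9.28 CPM, and Nf2, the tumour suppressor merlin, at 150 ± 26.4 and 137 ± 21.8 CPM in the same order. Akap5, an anchor known from neurons and named after its values were seen, was left out by the filter, with 0, 3 and 6 counts in wild type, against 1, 9 and 2 without PNMA4.

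The kinase that these proteins hold was also described through its subunits. Of 10 listed genes of PKA subunits, the related kinase Prkx and PKA inhibitors, 9 were tested and 0 passed (0 also at an unadjusted p under 0.05 in edgeR), with a median log2 fold change of -0.09. Prkar1a, a type I regulatory subunit, was at 101 ± 12.7 CPM in wild-type libraries, against 113 ± 6.29 CPM in those lacking PNMA4 (SD, n = 3 each). Prkar2a, the type II subunit that most anchors bind, stood at 74.6 ± 12.0 and 67.8 ± 8.62 CPM. Prkaca, the main catalytic subunit with a sperm form, stood at 75.8 ± 12.2 and 76.2 ± 7.98 CPM.

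Proteins listed for a dimer domain that resembles that of PKA's regulatory subunit, some of which dock on AKAP3 or AKAP4, numbered 6. In edgeR, DESeq2 and limma-voom 0 of the 6 passed the test. Their median log2 fold change was 0.07. Ropn1l was at 105 ± 0.921 CPM in wild-type libraries, against 115 ± 13.4 CPM in those lacking PNMA4 (SD, n = 3 each), and Cabyr, a calcium-binding sheath protein, at 74.7 ± 6.84 and 72.9 ± 13.8 CPM. Ropn1, ropporin, singled out after its values were seen, had the one unadjusted p under 0.05 of this list in edgeR. That is 1 of 6, against 2.92% of all genes tested. It was at 15.5 ± 6.19 CPM in wild-type libraries, against 29.2 ± 11.7 CPM in those lacking PNMA4, with groups that overlap and a log2 fold change of -0.91 (standard error 0.31, edgeR adjusted p = 1.00).

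The wider fibrous sheath list, which holds its glycolytic enzymes and repeats 4 genes of the list before it, had 14 tested gene IDs for 13 symbols. Again 0 passed in edgeR, and Ropn1 was the one with an unadjusted p under 0.05, or 1 of 14 against 2.92% of all genes. The median was 0.00, with 7 above 0 and 7 below. Hk1, the hexokinase gene with a sperm form, was at 1331 ± 400.4 CPM in wild-type libraries, against 1171 ± 186 CPM in those lacking PNMA4 (SD, n = 3 each). Fsip2, a giant sheath protein, was at 1322 ± 713 CPM in wild-type libraries, against 1101 ± 310 CPM in those lacking PNMA4. Ldhc, the lactate dehydrogenase of sperm, was the one member whose groups did not overlap, at 502 ± 26.5 and 651 ± 72.6 CPM (log2 fold change -0.37, edgeR adjusted p = 1.00). Across all genes tested, 6.69% had groups that did not overlap.

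Enzymes that make, break or sense cyclic AMP were 22 tested of 28 listed. In edgeR 0 passed and 0 had an unadjusted p under 0.05, with a median log2 fold change of 0.01. Adcy10, the bicarbonate-sensitive cyclase of sperm, was at 347 ± 60.4 CPM in wild-type libraries, against 355 ± 41.8 CPM in those lacking PNMA4 (SD, n = 3 each). The phosphodiesterase genes Pde8a and Pde1c stood at 225 ± 26.3 and 217 ± 38.0 CPM in wild type and at 222 ± 18.3 and 217 ± 27.9 CPM without PNMA4. The cyclase gene Adcy8, named after its values were seen, was at 0 in all 6 libraries. Of the phosphatases and kinases known to bind AKAPs, 19 of 19 were tested and 0 passed (0 at an unadjusted p under 0.05 in edgeR), with 14 below 0 and a median of -0.10. Ppp1cc, the phosphatase gene with a testis form, was at 128 ± 25.2 CPM in wild-type libraries, against 136 ± 11.1 CPM in those lacking PNMA4 (SD, n = 3 each). In the same order of groups Csnk1d, a casein kinase gene, stood at 96.9 ± 19.0 and 91.6 ± 21.5 CPM, and Ppp3cc, the testis calcineurin gene, at 87.6 ± 13.9 and 86.0 ± 6.11 CPM. For the genes of these 6 lists DESeq2 and limma-voom also gave 0 calls.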

How the data were processed

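The authors deposited 1 table of raw counts, whole numbers per Ensembl gene ID with a symbol column. The tools behind it, per the submitters' processing notes, were STAR 2.5.2b, bcl2fastq 2.20, featureCounts and DESeq2, with the build GRCm38. The sources used here do not give their roles or the strand and multi-mapping settings. Counts were tested with edgeR 4.0.16 in R 4.3.3 (filterByExpr at a count of 10 and a total of 15, TMM factors, quasi-likelihood F test, Benjamini-Hochberg at 0.05). Standard errors were taken as the size of the log2 fold change over the root of F, and the 95% interval uses the fit's degrees of freedom. DESeq2 1.42.0, limma 3.58.1 voom, other scalings and filters, a replicate block and single libraries left out were alternatives. On simulated data (200 of 13413 genes changed, 10 simulations) the edgeR step recovered 94.1% of genes changed 4-fold and 41.3% of those changed 2-fold. Libraries from separate lysates were replicates, per the design text. Intervals of shares cover counting error only. Members and lists were chosen with earlier results of these data known. The text names all members, and of each list either called genes or 2 to 4 of the highest mean CPM, unless said otherwise. Same-numbered libraries share no source in the labels. Promoters and gene coordinates are from RefSeq tables of GRCm38.p6, matched by symbol for 10 of 10 members.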

Additional observations from a re-analysis of the deposited data

How the results depend on the processing

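No Akap gene that was tested passed under any of the 15 alternatives, and Akap14 was not tested under the stricter filter, which left 9 members. The median log2 fold change of the members stayed above 0 throughout (0.07 to 0.24 with 1 library left out) and was 0.45 without scaling factors, a setting that moves the median of all genes to 0.31. Of all genes, 8 were called, with 31 called without a filter, 2 with the stricter filter and 8 to 11 with 1 library left out. For the double knockout against Pnma4 KO, 10 genes were called, with 201 without scaling factors and 9 to 38 with 1 library left out (38 without wild-type replicate 3, 25 without wild-type replicate 2, 20 without Pnma4 KO replicate 1). With the replicate block, 7 genes and 0 members were called. The ratio difference, -0.32, cannot move under the block in a balanced design, and its exact permutation p was 0.75, against 0.5 without the block. Deviations of same-numbered libraries correlated at 0.04, -0.06 and 0.08, which shows no pairing by number but cannot exclude one. Small log2 fold changes crossed 0: Akap1 was -0.0051 with the stricter filter and -0.019 with the block, and without scaling factors Akap4 was 0.19 and Akap11 0.24. With 1 library left out Akap1 ran from -0.11 to 0.21, Akap3 from -0.11 to 0.15, Akap11 from -0.35 to 0.10 and Akap12 from -0.049 to 0.50. The cause was not tested. Without wild-type replicate 2, Akap9 had a log2 fold change of 0.50 and an unadjusted p of 0.0491 (edgeR adjusted p = 0.9998). The ratio of Akap3 plus Akap4 to Akap12 kept its direction, from -0.67 to -0.06 with 1 library left out, as did the family's share of counts (0.07 to 0.24 percentage points). Akap14, the member with the fewest reads, had the widest interval.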

Other observations

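Genes whose log2 CPM followed Akap4 most closely over the 6 libraries were Adipor1, an adiponectin receptor gene (Pearson r = 0.98), Slc7a5, an amino acid transporter gene (0.98), and Wdr6 (0.97). For Akap12 they were Cep250, a centrosome gene (1.00), Rrbp1, a ribosome-binding protein gene of the endoplasmic reticulum (0.99), and Ndufa13, a gene of respiratory complex I (0.99). These values describe 6 libraries that share their scaling factors: of 7106 genes with a mean of at least 10 CPM, 60 had an r of at least 0.9 with Akap4 and 143 with Akap12. Within the family the closest to Akap4 was Akap3 (0.76) and the closest to Akap12 was Akap9 (0.80). Akap9 and Akap13 had an r of 0.99. All 14 values between either of Akap3 and Akap4 and the 7 members other than Akap1 were negative, from -0.85 to -0.19. They rest on Akap3 and Akap4 over the same 6 libraries, so they are not independent. The share of negative values over all pairs of genes was not taken. Akap1, set apart here after the values were seen, had an r of 0.82 with Akap3 and 0.37 with Akap4. Akap3 was thus closer to Akap1 than to Akap4. With the other 7 members Akap1 was also negative, from -0.87 to -0.02, except with Akap12 (0.25).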
